A study of Mus musculus with 4 samples.

Results

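Described here are 8 genes of the IL-33 and type 2 immune axis: Il33, Il1rl1, Gata3, Areg, Il4, Il5, Il13 and Calca. They were taken by symbol from the 31054 features of the count tables, and all 8 were listed there. Their transcripts were followed in 4 single-cell RNA libraries of aged mouse kidney. All animals were male C57BL/6 mice, 19 months old, and had been given for 1 month either BPTES, a small-molecule inhibitor of glutaminase, or DMSO, its vehicle, each group being represented by 2 libraries. Kidneys of both groups were digested with liberase, stained for the leukocyte antigen CD45 and sorted, and each library joined 20000 CD45-negative with 9000 CD45-positive cells. The question is which cells carry these transcripts and how they differ with BPTES. Whether the 2 libraries of a group stem from separate animals is not stated, so the p-values measure the spread between libraries, which may be technical.

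IL-33 is a nuclear cytokine of stromal and barrier cells that is released on damage and binds the receptor ST2, the product of Il1rl1. Group 2 innate lymphoid cells (ILC2) and a subset of regulatory T cells carry this receptor, and both rely on the transcription factor GATA3. Activated ILC2 make the type 2 cytokines IL-5 and IL-13, the epidermal growth factor receptor ligand amphiregulin (Areg) and, in some tissues, calcitonin gene-related peptide (CGRP, from Calca), while IL-4 is best known from T helper cells, natural killer T cells, basophils and mast cells.

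On GRCm38, Il33 spans 29925114 to 29960718 of chromosome 19 and Il1rl1 40429570 to 40465415 of chromosome 1, both on the plus strand. Gata3 spans 9857078 to 9890034 of chromosome 2 (minus), Areg 91139599 to 91148432 of chromosome 5 (plus) and Calca 114631478 to 114636357 of chromosome 7 (minus). The cytokine genes Il4 (53602982 to 53618669, minus), Il13 (53631324 to 53634702, minus) and Il5 (53720794 to 53725106, plus) are close neighbours on chromosome 11. Gata3 overlaps 9230102O04Rik on its own strand, so reads of these 2 loci could be shared. On the other strand Gata3 overlaps Gm13256 and 4930412O13Rik, and Il5 overlaps Gm12214. Reads could be shared with these only if counting ignored the strand.

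Because GATA3 is one of the 8, the 250 bases before each RefSeq start (GRCm38.p6) were searched on both strands for the GATA core motif AGATAA with its variant AGATAG and for TGATAA with its variant TGATAG. A match was present in 26.5% of all 32851 such windows. The first Il1rl1 start had 5 matches, lying 54 to 217 bases upstream. Il5, Il13, Calca, the second Il4 start and the second Il1rl1 start had 1 each, and both Il33 starts, Gata3, Areg and the first Il4 start had 0. A match is a run of letters and no measured binding. Printed below, 5′ to 3′ with the matches in capitals, are the windows of the first Il1rl1 start and of the effector genes that held one, with an Il33 window, without a match, for contrast. They lie at chr19:29924863-29925112, plus strand (Il33), chr1:40429320-40429569, plus strand (Il1rl1), chr11:53617339-53617588, minus strand (Il4), chr11:53720544-53720793, plus strand (Il5), chr11:53634703-53634952, minus strand (Il13) and chr7:114636358-114636607, minus strand (Calca).
Il33, first start: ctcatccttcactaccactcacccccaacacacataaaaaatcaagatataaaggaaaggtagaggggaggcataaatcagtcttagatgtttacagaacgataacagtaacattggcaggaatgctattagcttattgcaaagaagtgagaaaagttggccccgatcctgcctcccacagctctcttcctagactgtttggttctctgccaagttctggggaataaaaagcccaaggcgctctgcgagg
Il1rl1, first start: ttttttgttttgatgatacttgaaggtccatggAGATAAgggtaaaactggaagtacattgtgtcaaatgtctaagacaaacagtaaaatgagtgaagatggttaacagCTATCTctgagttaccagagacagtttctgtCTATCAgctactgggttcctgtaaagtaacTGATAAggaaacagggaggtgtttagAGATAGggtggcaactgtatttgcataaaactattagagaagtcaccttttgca
Il4, second start: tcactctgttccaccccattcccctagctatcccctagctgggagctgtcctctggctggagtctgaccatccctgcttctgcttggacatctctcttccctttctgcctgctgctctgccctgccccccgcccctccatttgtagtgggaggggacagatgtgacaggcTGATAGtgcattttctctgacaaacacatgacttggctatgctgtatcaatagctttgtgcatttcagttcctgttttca
Il5: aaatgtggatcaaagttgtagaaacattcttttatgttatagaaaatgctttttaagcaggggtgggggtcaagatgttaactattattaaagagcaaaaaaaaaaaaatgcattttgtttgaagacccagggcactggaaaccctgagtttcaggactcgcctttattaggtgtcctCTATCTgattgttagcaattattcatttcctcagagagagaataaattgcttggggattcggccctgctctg
Il13: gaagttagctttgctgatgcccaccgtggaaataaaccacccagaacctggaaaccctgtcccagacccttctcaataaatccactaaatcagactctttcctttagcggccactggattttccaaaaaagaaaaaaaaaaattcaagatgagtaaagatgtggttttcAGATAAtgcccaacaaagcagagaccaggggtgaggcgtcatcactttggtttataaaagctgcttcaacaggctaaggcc
Calca: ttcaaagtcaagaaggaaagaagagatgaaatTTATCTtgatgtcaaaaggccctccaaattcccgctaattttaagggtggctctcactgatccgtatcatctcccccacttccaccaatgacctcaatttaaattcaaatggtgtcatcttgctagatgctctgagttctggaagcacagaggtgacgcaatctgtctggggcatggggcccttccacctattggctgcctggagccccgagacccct

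Cells were sorted into classes by marker genes that include none of the 8, and a class name stands for cells like that type. Of 76278 barcodes, 46738 cells were kept, with 10849 to 12076 in a library, from totals of 249881074 to 297947661 UMIs (unique molecular identifiers, each standing for 1 captured transcript). Any 2 libraries shared 36 to 54 barcodes. Among the 338 ILC2, Il7r was detected in 96.7%, Rora in 97.6% and the T cell gene Cd3e in 3.25%. Pecam1 was detected in 99.8% of endothelial cells, Col1a1 in 100% of fibroblasts and Foxp3 in 76.6% of regulatory T cells. Il7r, Rora, Pecam1, Col1a1 and Foxp3 were among the naming markers, and Cd3e was limited in naming ILC2. These values therefore describe the classes and do not test their names. The macrophage class includes cluster 17, whose 934 cells had Cd3e in 92.1% and a median of 29121 UMIs, and its results are therefore also given without that cluster. A level is the count per 1000000 UMIs of a class in a library (CPM). Differences were tested with edgeR's quasi-likelihood test on UMIs summed per library and class, adjusted over all genes of the class, and a gene is called where the adjusted p is under 0.05. Values are given in the order BPTES replicates 1 and 2 against DMSO replicates 1 and 2.

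**Figure D1:**
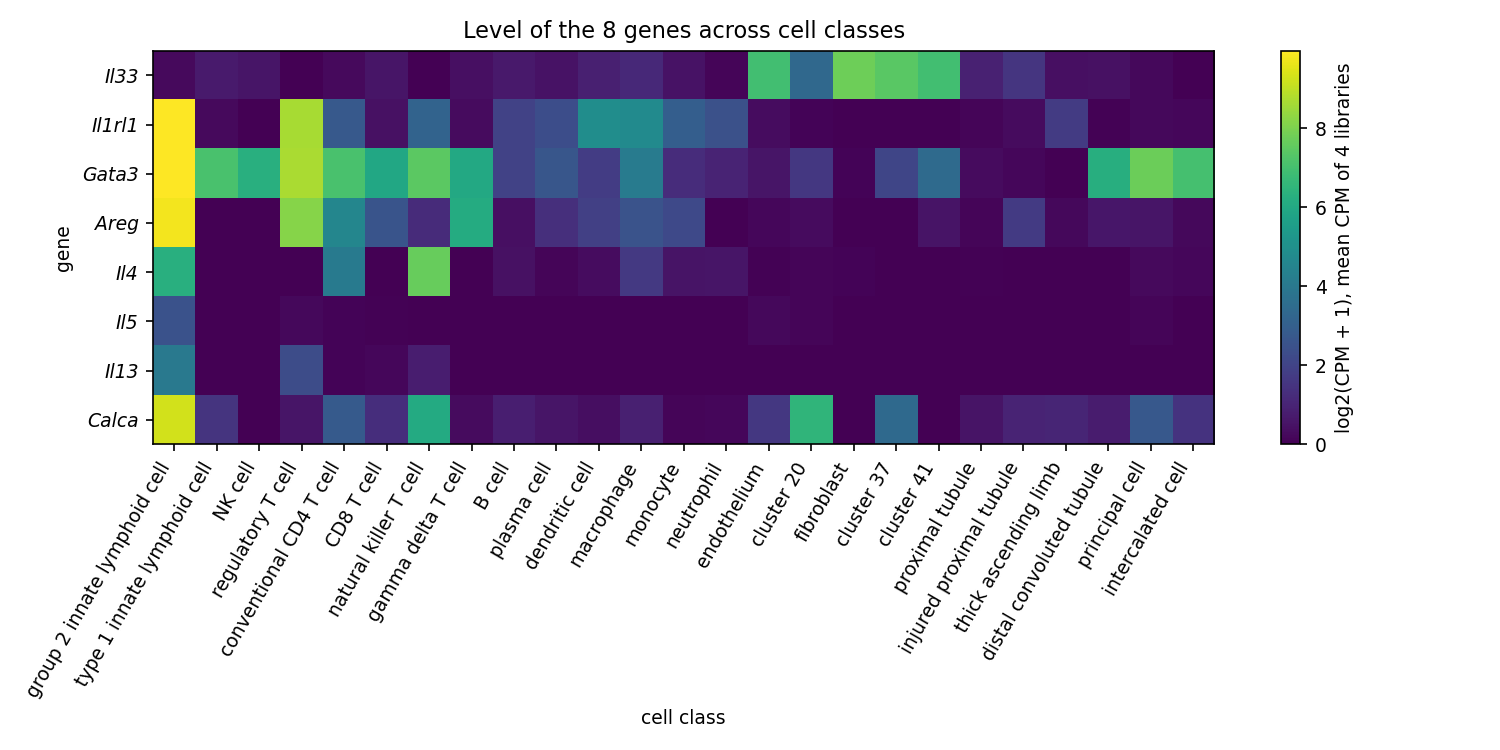
Level of the 8 genes (rows) in 25 of the 36 cell classes (columns), coloured by log2(CPM + 1) of the mean CPM of the 4 libraries. Il33 is bright in endothelium, fibroblasts and clusters 37 and 41, Il1rl1, Gata3, Areg and Calca are brightest in ILC2, and Il4 in natural killer T cells.

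The ligand gene Il33 was carried by vessel and stroma and was lower in endothelium with BPTES. Of 7746 Il33 UMIs, 57.7% lay in endothelium and 25.2% in fibroblasts, while all ILC2 together held 1. Endothelial Il33 came to 896 and 483 against 1245 and 1846 UMIs, or 102 and 96.1 against 149 and 144 CPM. Both treated libraries thus lay below both vehicle libraries. An Il33 UMI was found in 42.9% and 38.6% against 54.5% and 56.6% of endothelial cells, with exact 95% intervals of 39.3 to 46.6 and 34.0 to 43.3 in the treated libraries and 50.7 to 58.3 and 53.4 to 59.9 in the vehicle libraries. The median endothelial cell had 11092 and 10746 against 11202 and 13017 UMIs, and after thinning each cell to 2000 UMIs the shares were 16.6% and 13.4% against 21.6% and 21.3%, with 0, 2, 1 and 1 shallower cells left out. Endothelial Il33 fell, with a log2 fold change of -0.55 (SE 0.08, adjusted p 0.0130), where 0.543% of 12899 genes were called. It was called under all 13 alternative settings run, with values from -0.63 to -0.53.

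Fibroblasts, the cells that build interstitial matrix, had the highest Il33 level of any class with the libraries added together, 241 CPM, followed by 179 CPM in the unnamed cluster 37, 128 CPM in endothelium and 125 CPM in cluster 41. There were only 13 and 16 fibroblasts in the treated libraries and 34 and 183 in the vehicle libraries, so no fit was made. Their 53 and 104 against 270 and 1526 UMIs of Il33 gave 145 and 223 against 241 and 248 CPM, and 53.8% and 87.5% against 97.1% and 88.0% of them had a UMI. The treated libraries were lower, but the exact Poisson interval of BPTES replicate 2 (182 to 269.7 CPM) overlapped that of DMSO replicate 1 (213 to 272 CPM). Fibroblasts made up 0.198% ± 0.0470 of CD45-negative cells with BPTES and 1.40% ± 1.34 with vehicle (SD, n = 2), and edgeR put the log2 ratio of shares at -2.82 (SE 0.55, adjusted p 3.24e-04). DMSO replicate 2 carried most of this: leaving it out gave -1.19 (adjusted p 0.173). Leaving out either treated library also ended the call (adjusted p 0.158 and 0.0695).

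Over all kept cells, Il33 totalled 1236 and 767 UMIs against 1845 and 3898, a log2 fold change of -1.28 (SE 0.36, adjusted p 0.236) with 0.0638% of 20371 genes called. In such a sum, fewer Il33-bearing cells and less Il33 per cell cannot be told apart. Cluster 41, 221 unnamed cells led by Dcn, C7 and Col1a2, had 100 and 64 against 62 and 141 UMIs of Il33 and no difference called (log2 fold change 0.03, SE 0.35, adjusted p 0.999). Cluster 37, 253 shallow unnamed cells with a median of 1069 to 1156 UMIs and led by Gng11, Fam167b and Cavin3, had 8 and 9 against 20 and 31 UMIs of Il33. Its levels of 102 and 138 against 196 and 232 CPM were lower in both treated libraries, without a call (log2 fold change -0.82, SE 0.44, adjusted p 0.813). In cluster 20, 777 unnamed cells with Pecam1 and the arterial genes Sox17 and Gja4, Il33 had 38 and 19 against 17 and 29 UMIs, and its levels of 10.5 and 10.7 against 6.52 and 8.88 CPM were higher in both treated libraries, without a call (log2 fold change 0.44, SE 0.33, adjusted p 0.783). Only 1.05% to 1.89% of proximal tubule cells had an Il33 UMI. In B cells, which are not known to make Il33 and are used here as background, the shares were 0% and 0% against 0.647% and 2.95%, and the 0 UMIs of the treated libraries allow a share of cells with a UMI, by counting error alone, of up to 0.838% and 0.990%. Of the 11 Il33 UMIs in B cells, 9 lay in cluster 50, 85 cells with a median of 34336 UMIs, and the other B cells had Il33 in 0% and 0% against 0% and 0.926%.

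Leukocytes held little Il33, with a UMI in 0.499% and 0.254% against 1.19% and 2.46% of cells. This is above the share of B cells in 3 of the 4 libraries and below it in DMSO replicate 2, and above that of B cells outside cluster 50 in all 4. These shares are not at a common depth. B cells outside cluster 50 had a median of 9936 UMIs, while dendritic cell cluster 14, for instance, had 32452. Their sum of 27 and 11 against 79 and 123 UMIs was called lower, with a log2 fold change of -2.20 (SE 0.44, adjusted p 0.0481) and 8.74% of 17261 genes called. No call remained when any 1 of the 4 libraries was left out (adjusted p 0.0564 to 0.239). In macrophages Il33 gave -2.30 (SE 0.49, adjusted p 0.0513), and -2.61 (SE 0.55, adjusted p 0.0439) without cluster 17, where 5.79% of genes were called.

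Il1rl1, the ST2 receptor gene, was highest in ILC2 and its difference there lay within the spread of the libraries. ILC2 had 1791 and 1383 against 918 and 806 UMIs, or 947 and 1023 against 988 and 1007 CPM, and 92.6% to 100% of them had a UMI. The log2 fold change was -0.05 (SE 0.12, adjusted p 0.949), with 0.489% of the 8591 genes of ILC2 called. Regulatory T cells came second among named classes at 302 and 466 against 355 and 494 CPM, below each ILC2 library, and gave -0.15 (SE 0.26, adjusted p 0.886). Among the named classes dendritic cells and macrophages came next, with overlapping ranges of CPM.

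In dendritic cells, which present antigen to T cells, the summed level of Il1rl1 was lower with BPTES, and so was the share of the dendritic cell cluster that carries most of it. The UMIs of Il1rl1 were 241 and 209 against 634 and 567, or 22.6 and 20.3 against 36.5 and 33.8 CPM, and the groups were separate. A UMI was present in 30.6% and 28.9% against 38.7% and 39.5% of dendritic cells, compared with 0.330% to 6.27% of B cells and, outside cluster 50, which held 44 of their 47 UMIs, 0% to 0.926%. After thinning to 2000 UMIs the shares overlapped, at 5.81% and 3.81% against 6.81% and 5.69%, with 4, 15, 5 and 1 shallower cells left out. Dendritic cell Il1rl1 fell by the test, at -0.74 (SE 0.10, adjusted p 0.0279), in a class where 2.1% of 13019 genes were called. Without BPTES replicate 1 it was -0.81 (adjusted p 0.165) and without BPTES replicate 2 -0.68 (0.222), and it was also not called with doublets kept. Cluster 14, led by Cd209a, Ccl17 and Tnip3, held 1506 of the 1651 UMIs and made up 57.0% and 53.6% against 75.8% and 69.5% of dendritic cells. Cluster 28, led by Xcr1, Ifi205 and Naaa, held 141 UMIs and made up 34.1% and 36.2% against 16.7% and 30%. The 2 treated libraries thus had the smaller share of cluster 14. Within cluster 14 the level was 36.7 and 33.7 against 45.7 and 45.5 CPM, lower in both treated libraries, but the log2 fold change was -0.38 (SE 0.10, adjusted p 0.122) and was not called, where 0.873% of 12026 genes were. Within cluster 28 the levels overlapped at 7.53 and 7.25 against 6.61 and 9.98 CPM, with -0.20 (SE 0.31, adjusted p 0.827), where 0% of 10897 genes were called. Macrophages had 509 and 301 against 662 and 569 UMIs of Il1rl1 with overlapping levels (30.5 and 21.9 against 30.3 and 23.3 CPM), and gave -0.05 (SE 0.19, adjusted p 0.907), or 0.29 (SE 0.32, adjusted p 0.639) without cluster 17. The effect in macrophages minus that in dendritic cells was 0.68 (SE 0.15, adjusted p 0.121), which was not called, where 0.488% of genes were. It was called without DMSO replicate 1, at 0.82 (adjusted p 0.00613), and not without DMSO replicate 2 (0.55, 0.0656), BPTES replicate 1 (0.51, 0.595) or BPTES replicate 2 (0.82, 0.549).

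Gata3, the transcription factor gene of ILC2 and type 2 helper T cells, is also a gene of the collecting duct, and in none of the 21 classes tested was a difference called. In 4 of them the unadjusted p was under 0.05, as it was for 13.1% of all pairs of a gene and one of these classes. ILC2 had 1951 and 1212 against 917 and 767 UMIs, at 1032 and 897 against 987 and 959 CPM, and the log2 fold change was -0.04 (SE 0.12, adjusted p 0.957). Regulatory T cells followed with 425 and 475 against 342 and 419 CPM (log2 fold change 0.24, SE 0.23, adjusted p 0.745). Principal cells, which take up water and sodium in the collecting duct, had 690 and 469 against 465 and 580 UMIs of Gata3, in 82.1% to 90.2% of cells. Their levels of 229 and 202 against 209 and 199 CPM differed little (log2 fold change 0.11, SE 0.13, adjusted p 0.786, with 0.0812% of 11079 genes called). Below them came, among the named classes, natural killer T cells at 136 and 189 against 184 and 188 CPM, conventional CD4 T cells at 138 and 135 against 147 and 129.7, type 1 innate lymphoid cells at 112 and 136 against 159.7 and 134 and acid-secreting intercalated cells at 108 and 148 against 117 and 140.2, and these 4 overlapped one another. Natural killer cells followed at 101 and 82.9 against 63.6 and 61.1 CPM and distal convoluted tubule at 70.3 and 80.2 against 76.0 and 75.9, which also overlapped. Of the 1246 Gata3 UMIs in the macrophage class, 1217 lay in cluster 17.

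Areg encodes amphiregulin, a ligand of the epidermal growth factor receptor in tissue repair. ILC2 held 64.3% of its 6827 UMIs and regulatory T cells 11.3%. The ILC2 counts were 1635 and 1296 against 972 and 488, or 865 and 959 against 1046 and 609.9 CPM, with overlapping groups and a log2 fold change of 0.11 (SE 0.25, adjusted p 0.943). Detection went another way: 51.1% and 50% against 72.4% and 65.3% of ILC2 had an Areg UMI, both treated libraries being lower. The exact 95% intervals were 42.4 to 59.8, 39.6 to 60.4, 59.1 to 83.3 and 50.4 to 78.3. At 2000 UMIs per cell the shares were 33.1% and 30.4% against 44.6% and 36.7%, with 11, 4, 2 and 0 shallower cells left out. An exact permutation test of 2 against 2 libraries cannot fall below 0.33. In B cells, as background, the share with an Areg UMI was 0% to 0.369%. Much Areg sat in few cells, up to 329 UMIs in 1 ILC2. Regulatory T cells had 328 and 376 against 114 and 306 CPM of Areg, with 0.72 (SE 0.41, adjusted p 0.584). Without DMSO replicate 2 the difference was called, at 1.61 (adjusted p 0.0277), and without DMSO replicate 1 it was 0.20 (0.997). An Areg UMI was present in 27.1% and 23.1% against 37.9% and 38.8% of regulatory T cells, lower in both treated libraries, and after thinning to 2000 UMIs the groups overlapped, between 9.43% and 20.5%.

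Il5, which drives eosinophils, and Il13, which acts on epithelium and macrophages, were rare. Il5 had 43 UMIs in all, with 5 and 9 against 4 and 4 in ILC2, and no class held enough to be tested. In ILC2, 3.70% and 3.12% against 6.90% and 8.16% of cells had an Il5 UMI. Il13 had 104 UMIs, of which 65 were in ILC2 and 16 in regulatory T cells. ILC2 had 15 and 5 against 37 and 8 UMIs of Il13, in 5.19% and 4.17% against 20.7% and 6.12% of cells. The shares of both genes are given without thinning to a common depth. DMSO replicate 1 stood high, and 13 of its UMIs came from 1 cell. The log2 fold change of Il13 in ILC2 was -2.08 (SE 0.63, adjusted p 0.324), and -0.73 without DMSO replicate 1 but -2.71 (adjusted p 2.61e-06) without DMSO replicate 2. Neither gene had a UMI in B cells or proximal tubule. Of the 43 Il5 UMIs, however, only 33 lay in CD45-positive cells, the others in CD45-negative cells outside the proximal tubule class. DMSO replicate 2 held 18 of the 43, of which 4 were in ILC2. All 26 ILC2 with Il13 had Il1rl1, as had 94.9% of the others.

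Il4, the cytokine gene of T helper cell polarisation, was most abundant in natural killer T cells. They held 51.8% of its 1664 UMIs, ILC2 23.3% and conventional CD4 T cells 8.83%. In natural killer T cells the counts were 243 and 237 against 346 and 36, and 218 of those of DMSO replicate 1 came from 1 cell. The levels overlapped at 181 and 136 against 376 and 106 CPM, and the log2 fold change was -0.78 (SE 0.64, adjusted p 0.849), in a class with 0.105% of 8539 genes called. Leaving out DMSO replicate 1 turned it to 0.55 (adjusted p 0.395), and leaving out DMSO replicate 2 gave -1.28 (6.16e-05). ILC2 had 83.5 and 72.5 against 81.8 and 68.7 CPM of Il4, detected in 50.4% and 52.1% against 51.7% and 49.0% of cells, with 0.03 (SE 0.18, adjusted p 0.982).

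Conventional CD4 T cells had more Il4 with BPTES in their sums, and single cells weighed heavily on it. The UMIs were 81 and 44 against 13 and 9, or 35.3 and 19.98 against 4.34 and 2.88 CPM, and the log2 fold change was 2.91 (SE 0.36, adjusted p 0.00435), where 0.206% of 10193 genes were called. In each treated library 1 cell held 35 of these UMIs, under different barcodes. With the top cell of every library taken off, 46 and 9 UMIs stood against 11 and 6, and Il4 was not called (2.09, SE 0.75, adjusted p 0.365). The share of CD4 T cells with an Il4 UMI overlapped between groups, at 6.91% and 2.48% against 3.28% and 1.35%, compared with 0% to 0.738% of B cells, whose median depth was 9303 to 13265 UMIs and that of the CD4 T cells 9209 to 10519. The effect on Il4 in ILC2 differed from that in CD4 T cells by -2.86 (SE 0.36, adjusted p 0.0204), in a comparison where 0.024% of genes were called, and this value includes the top cells. Leaving out BPTES replicate 1 or DMSO replicate 2 ended that call (adjusted p 0.113 and 0.0583). In the macrophage class Il4 was called higher (62 and 41 against 25 and 17 UMIs, log2 fold change 1.85, SE 0.34, adjusted p 0.0404, with 4.26% of 14063 genes called). Of these 145 UMIs, 137 lay in cluster 17, and without that cluster Il4 was too low to be tested. The call ended without BPTES replicate 1 or 2 (adjusted p 0.232 and 0.241).

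Calca gives rise to calcitonin and, by splicing, to CGRP, a vasodilator peptide that also acts on ILC2, and 3′ counts were not split between the products. ILC2 held 61.7% of its 5245 UMIs. Their counts were 1378 and 1046 against 366 and 445, or 729 and 774 against 394 and 556 CPM, so both treated libraries lay above both vehicle libraries. The share of ILC2 with a Calca UMI, 60.7% and 55.2% against 65.5% and 65.3%, was instead lower in the treated libraries. These shares are given without thinning to a common depth. B cells had a Calca UMI in 0% to 0.279%. The log2 fold change of the level was 0.64 (SE 0.15, adjusted p 0.115) and was not called. Without DMSO replicate 2 it was 0.90 (adjusted p 2.94e-04) and without DMSO replicate 1 0.42 (0.295). The unnamed cluster 20, described above, held 20.2% of Calca. It had 325 and 76 against 375 and 284 UMIs of Calca, with -0.71 (SE 0.51, adjusted p 0.812), where 0.579% of 11228 genes were called.

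**Figure D2:**
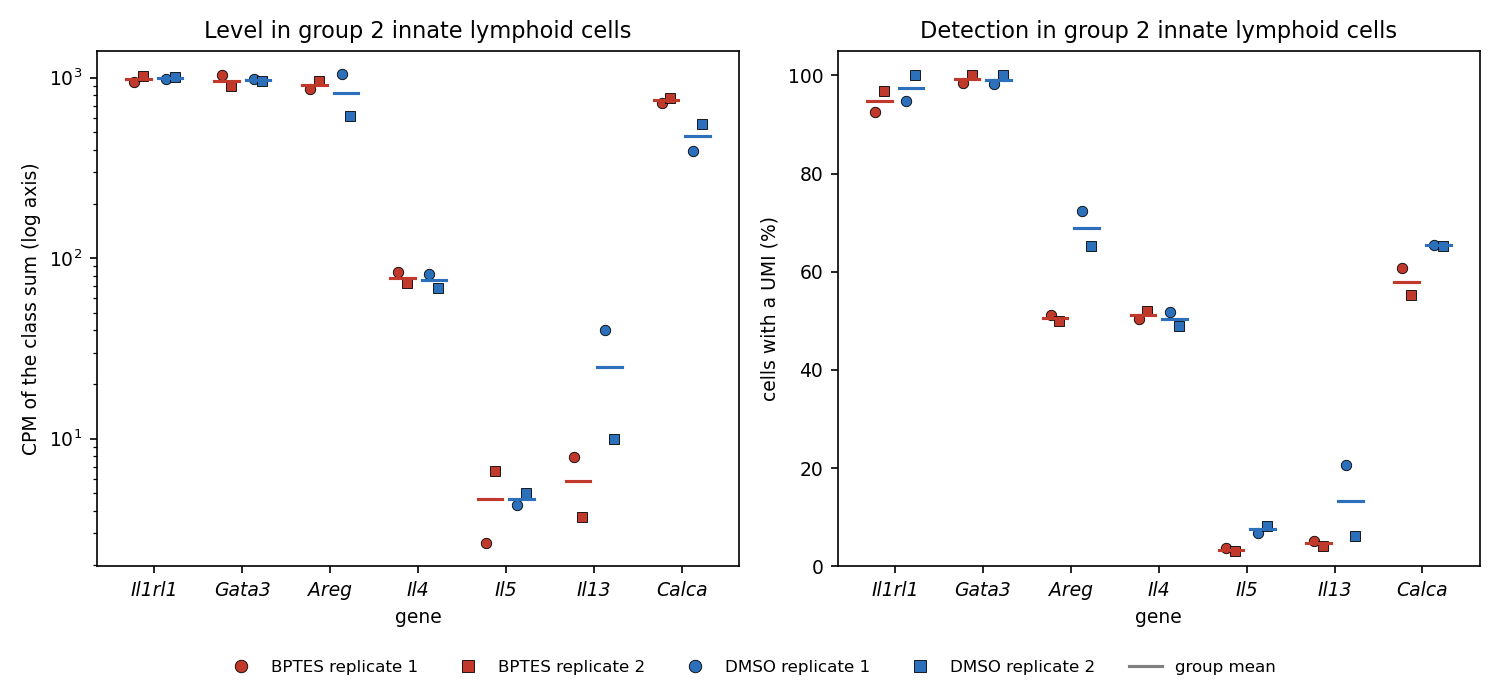
Level (left, CPM, log axis) and share of cells with a UMI (right, %) of 7 genes in ILC2, with 1 point for each library and a line at each group mean. Il1rl1, Gata3 and Il4 overlap between groups. In both BPTES libraries Calca has a higher and Il13 a lower level, and Areg, Calca, Il5 and Il13 have a lower share of positive cells. The shares are shown without thinning to a common depth.

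ILC2 were more frequent with BPTES. They numbered 135 and 96 against 58 and 49, or 3.21% and 2.44% of CD45-positive cells against 1.30% and 1.24%. The log2 ratio of shares was 1.16 (SE 0.35, adjusted p 0.0282) by edgeR, and the exact two-sided permutation p was 0.33, the smallest it can be. The call ended without BPTES replicate 1 (0.95, adjusted p 0.301), BPTES replicate 2 (1.35, 0.245) or DMSO replicate 2 (1.14, 0.0523). The shares of 8 of the 36 classes tested were called, or 22.2%, ILC2 among them. Type 1 innate lymphoid cells, the interferon gamma branch of the family, numbered 106 and 120 against 65 and 26. Their share of 2.52% and 3.04% against 1.46% and 0.660% rose too, with a log2 ratio of 1.40 (SE 0.41, adjusted p 0.0282), though the vehicle libraries lay far apart. Regulatory T cells, the other ST2-bearing lymphocytes, numbered 48 and 26 against 58 and 129, a log2 ratio of -1.33 (SE 0.48, adjusted p 0.0644). Natural killer T cells, the main source of Il4, numbered 159 and 211 against 107 and 42, with 1.40 (SE 0.42, adjusted p 0.0282). Their vehicle libraries also lay far apart, at shares of 3.78% and 5.35% against 2.40% and 1.07%. Such shares move together within the sort, and plasma cells were 4.88% ± 0.627 of CD45-positive cells with BPTES and 0.667% ± 0.0256 with vehicle (SD, n = 2).

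In the sum over all CD45-positive cells, Calca, Areg and Gata3 rose and Il33, described above, fell. That is 3 of 8 genes higher and 1 lower, where 3.57% of all genes rose and 5.17% fell. Calca had 1445 and 1153 against 582 and 610 UMIs and a log2 fold change of 1.36 (SE 0.08, adjusted p 0.00821). Areg gave 0.44 (SE 0.08, adjusted p 0.0411) and Gata3 0.42 (SE 0.09, adjusted p 0.0495). Leaving out either treated library ended the call for Calca (adjusted p 0.0784 and 0.110), leaving out any library ended that for Areg (0.100 to 0.153), and leaving out any but DMSO replicate 2 that for Gata3 (0.0676 to 0.252). The share of ILC2, the richest source of all 3, moved with these sums, and its part in them was not tested. Il1rl1 gave 0.03 (SE 0.09, adjusted p 0.851).

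**Figure D3:**
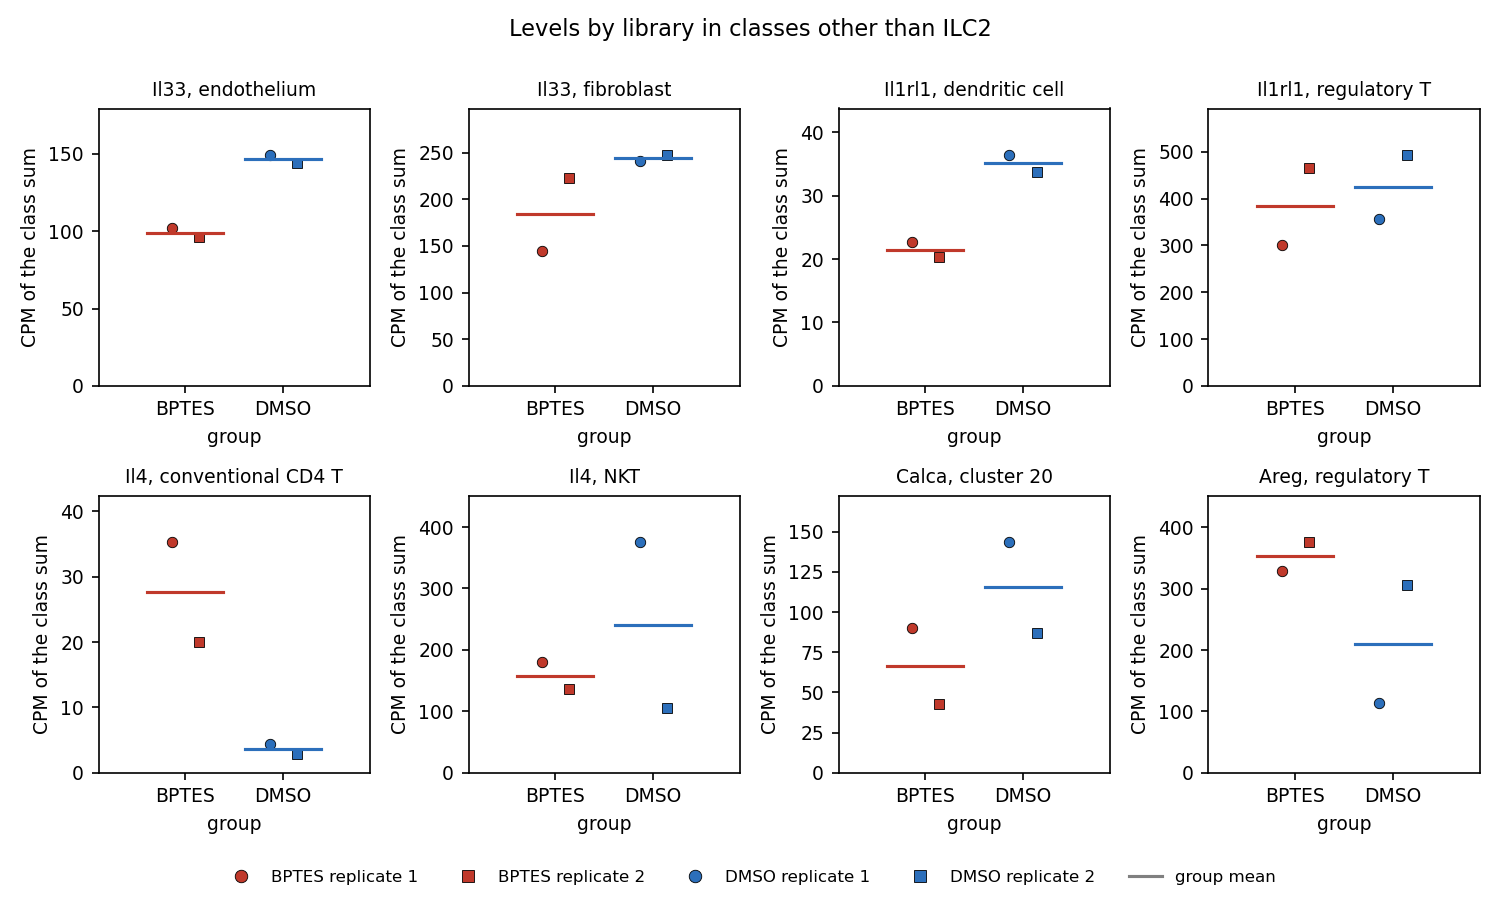
CPM of 8 pairs of a gene and a class outside ILC2, with 1 point for each library and a line at each group mean, each axis from 0. Il33 in endothelium and Il1rl1 in dendritic cells are lower in both BPTES libraries, while Il4 in natural killer T cells, Il1rl1 in regulatory T cells and Calca in cluster 20 overlap.

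Over all classes, 64 pairs of a gene and a class could be tested and 4 were called, 2 higher and 2 lower, while 0.568% of all 290753 such pairs of any gene were called. In 36 of the 64 the groups did not overlap, as was so for 43.6% of all pairs. The 8 genes were chosen with earlier results of these data known, so these counts are a description only. Il4 in CD4 T cells was not called without the top cells (edgeR adjusted p 0.365). Il4 in macrophages could not be tested without cluster 17. Il1rl1 was not called within dendritic cell cluster 14 (0.122) or 28 (0.827).

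**Figure D4:**
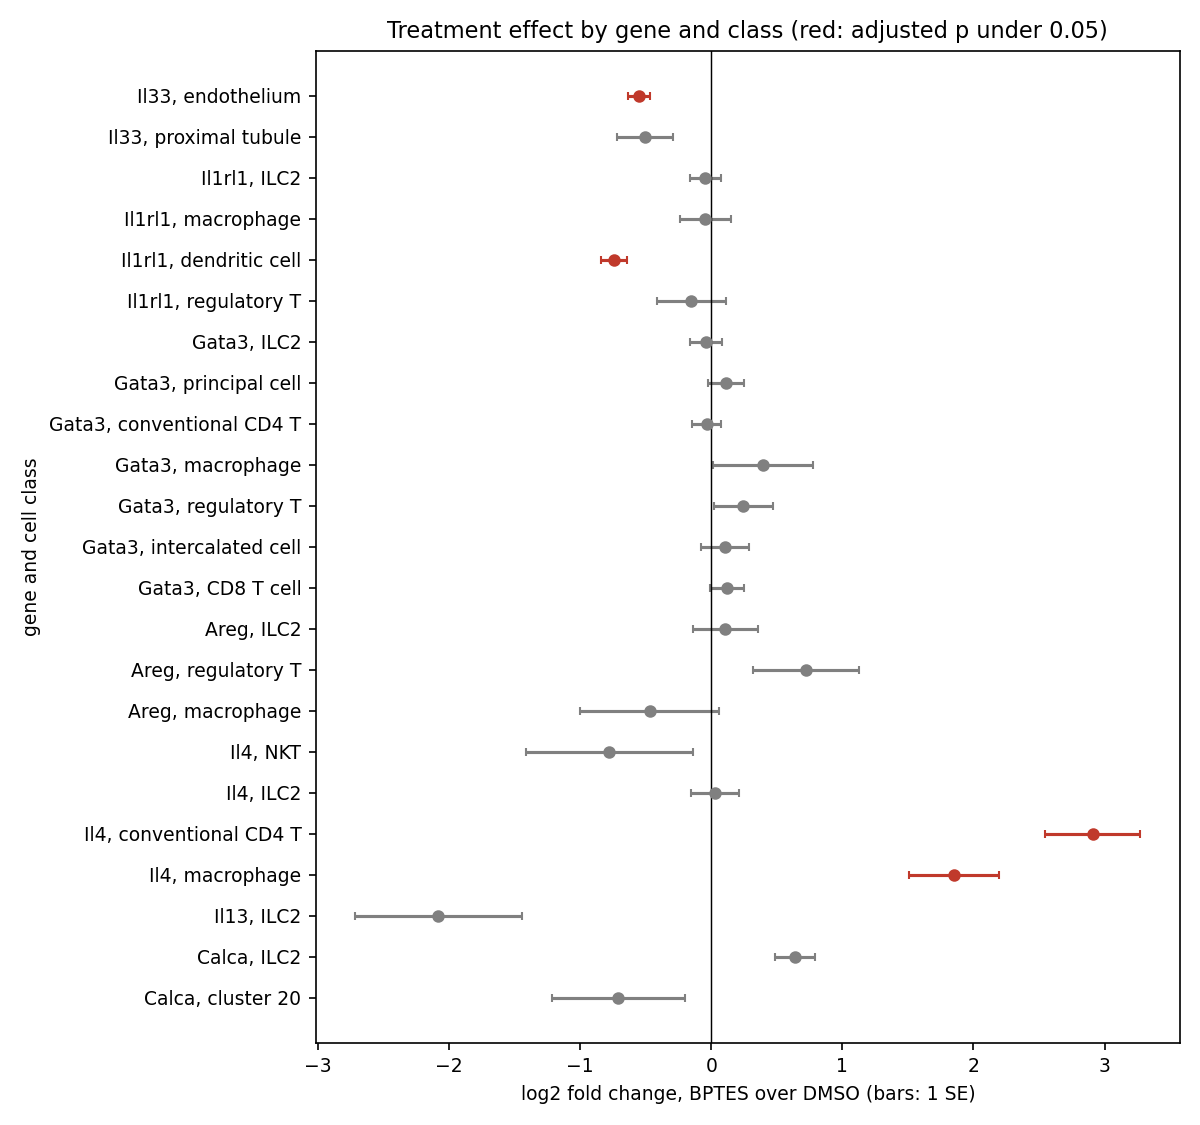
Log2 fold change, BPTES over DMSO, with bars of 1 SE, for pairs of a gene and a class that held at least 5% of the gene's UMIs or were called. Red points passed an adjusted p of 0.05: Il33 in endothelium (-0.55), Il1rl1 in dendritic cells (-0.74), and Il4 in conventional CD4 T cells (2.91) and the macrophage class (1.85).

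Genes known to be induced by IL-4 and IL-13 in myeloid cells formed a list of 18, of which several were lower in dendritic cells with BPTES. The list was chosen with earlier results of these data known, so its counts beside those of all genes are a description only. Of 16 tested, 6 fell and 0 rose, where 1.28% of all genes fell, and the median log2 fold change was -1.08 against -0.00395 over all genes. Ccl22, a chemokine gene that draws CCR4-bearing T cells, had 167 and 210 against 2421 and 2348 UMIs, or -2.98 (SE 0.13, adjusted p 0.00271). Ccl17, which encodes another ligand of that receptor, had 1438 and 924 against 6205 and 6497 UMIs, or -1.76 (SE 0.20, adjusted p 0.0430). The treated libraries were far below the vehicle libraries for both. Il4i1, an amino acid oxidase gene, gave -1.94 (SE 0.24, adjusted p 0.0475), Pdcd1lg2, which encodes the inhibitory ligand PD-L2, -1.55 (SE 0.17, adjusted p 0.0136), and the transcription factor gene Egr2 -1.20 (SE 0.14, adjusted p 0.0170). The sixth, the lectin gene Mgl2, gave -1.04 (SE 0.12, adjusted p 0.0265) from 4161 and 4535 against 13189 and 15358 UMIs. Dendritic cells were 7.59% ± 0.174 of CD45-positive cells with BPTES and 10.3% ± 1.34 with vehicle (SD, n = 2), and within them cluster 14 had a smaller share in both treated libraries, as given above. In cluster 14 alone, 4 of 16 tested genes fell and 0 rose, where 0.524% of all genes fell, with a median of -0.91 against 0.00435. These were Ccl22 (-2.84), Ccl17 (-1.48), Pdcd1lg2 (-1.39) and Egr2 (-0.94), while Il4i1 (-1.47, adjusted p 0.0547) and Mgl2 (-0.63, 0.122) were not called. In cluster 28 edgeR called 0 of 13 (4 at an unadjusted p under 0.05), where 0% of 10897 genes were called and 12.7% had an unadjusted p under 0.05. Of these 4, Mrc1 was the lower one (-0.84), while Klf4 (0.26), Pparg (0.44) and Arg1 had positive values. Arg1 had 121 and 41 against 0 and 2 UMIs in cluster 28, the opposite order in cluster 14 (0 and 1 against 30 and 144) and overlapping groups in all dendritic cells (136 and 42 against 30 and 146), with no call in any of them.

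In macrophages 17 of the list were tested and 3 fell, where 3.1% of all genes fell, with a median of -0.46 against -0.00813. These were Mrc1, the mannose receptor gene, at -0.92 (SE 0.15, adjusted p 0.0416), the transglutaminase gene Tgm2 at -0.78 (SE 0.11, adjusted p 0.0244) and the lectin gene Clec10a at -0.67 (SE 0.12, adjusted p 0.0416). Without cluster 17, Tgm2 gave -1.14 (SE 0.17, adjusted p 0.0298), while Mrc1 (log2 fold change -0.77, SE 0.19, adjusted p 0.0800) and Clec10a (log2 fold change -0.54, SE 0.23, adjusted p 0.210) were not called. Retnla, named here after its values were seen, had 0 and 2 against 1017 and 2898 UMIs and was not called in the whole class (adjusted p 0.0623). Without cluster 17 it had 0 and 1 against 1016 and 1562 UMIs and was called (adjusted p 0.0279).

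Calls of this list were not limited to the dendritic cell and macrophage classes. In proximal tubule 4 of 14 tested fell and 0 rose, where 0.431% of all genes fell. Ccl17 had only 7 and 6 against 39 and 41 UMIs there, or -2.57 (SE 0.38, adjusted p 0.0352), and Mgl2 56 and 57 against 165 and 150 UMIs, or -1.42 (SE 0.23, adjusted p 0.0464). Mrc1 had 123 and 90 against 245 and 261 UMIs, or -1.22 (SE 0.19, adjusted p 0.0401), and Klf4, a transcription factor gene, 116 and 66 against 245 and 246 UMIs, or -1.42 (SE 0.21, adjusted p 0.0351). These levels were 0.0567 to 2.51 CPM, and the part of transcripts from other cells in them was not tested. In gamma delta T cells Irf4, a transcription factor gene, fell from 196 and 126 UMIs with vehicle to 25 and 16 (log2 fold change -1.97, SE 0.23, adjusted p 0.00108, with 1.31% of 7796 genes called). Mrc1 fell in the unnamed cluster 10 of the CD45-positive compartment (log2 fold change -0.87, SE 0.15, adjusted p 0.00616, with 0.684% of 7754 genes called). Its level there was 659 and 880 against 1427 and 1384 CPM, compared with 484 and 442 against 732 and 1004.5 CPM in macrophages. Whether cluster 10 is myeloid was not tested. Tgm2 fell in cluster 20 (log2 fold change -0.54, SE 0.10, adjusted p 0.0425) and in endothelium (log2 fold change -0.62, SE 0.11, adjusted p 0.0264).

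**Figure D5:**
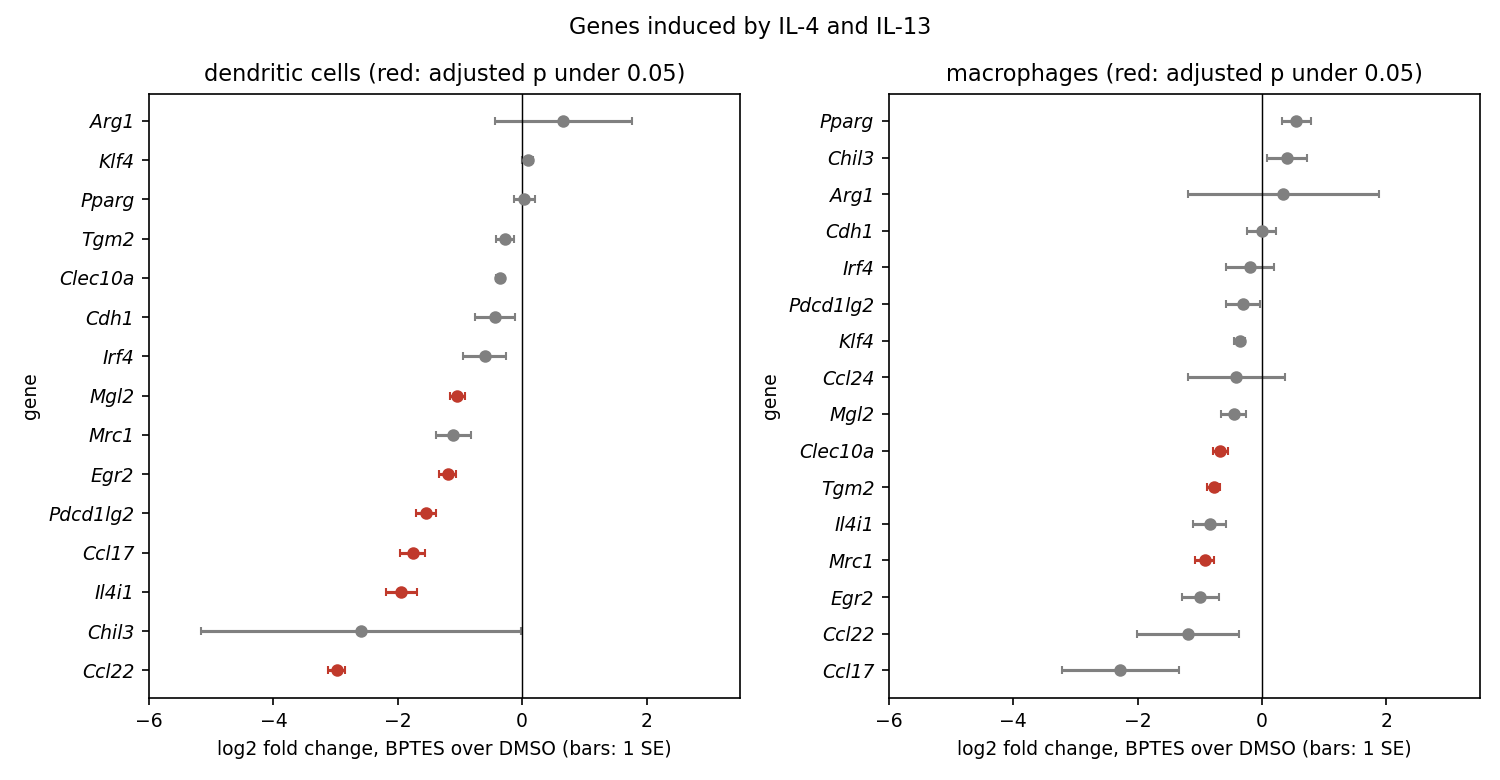
Log2 fold change, BPTES over DMSO, with bars of 1 SE, of genes induced by IL-4 and IL-13 in dendritic cells (left) and macrophages (right), Retnla left out because of its near-empty BPTES libraries. Red points passed an adjusted p of 0.05: 6 genes in dendritic cells, from -2.98 for Ccl22 to -1.04 for Mgl2, and 3 in macrophages.

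The other lists were called in few genes of a class. In ILC2, edgeR called 0 of 14 genes of IL-33 and alarmin signalling (1 at an unadjusted p under 0.05), 0 of 10 of type 2 cytokine receptors and signalling (2), 0 of 5 of the receptors and processing of amphiregulin and CGRP (1) and 0 of 16 regulators of type 2 lymphocytes (3). Among all genes of ILC2, 0.489% were called and 9.85% had an unadjusted p under 0.05. Some list genes, among them Rora and Il7r, also served as markers of the class. Icos, a costimulatory receptor gene, was the 1 list gene called in regulatory T cells, where it rose (log2 fold change 1.17, SE 0.23, adjusted p 0.0495, with 0.258% of 6988 genes called). In endothelium Il6 had 26 and 20 against 81 and 215 UMIs and fell (log2 fold change -1.99, SE 0.33, adjusted p 0.0400). Dendritic cells had less Ramp3, which pairs with receptors of the calcitonin family (log2 fold change -1.62, SE 0.24, adjusted p 0.0362), and less Csf2rb, the shared chain of the IL-5 and GM-CSF receptors (log2 fold change -0.49, SE 0.07, adjusted p 0.0362), of which Ramp3 but not Csf2rb was called in cluster 14 alone. The 1 gene of the type 2 receptor list called in cluster 14 was Il13ra1, which rose (log2 fold change 0.61, SE 0.10, adjusted p 0.0470, with 0.873% of genes called) and was not called in dendritic cells as a whole (log2 fold change 0.34, SE 0.08, adjusted p 0.0710). In that whole class Ramp3 and Csf2rb were 1 of 8 and 1 of 13 tested genes of their lists, with 2.1% of all genes called. Macrophages also had less Csf2rb (log2 fold change -0.49, SE 0.09, adjusted p 0.0415) and more Il18r1, a receptor gene for interleukin 18 (log2 fold change 0.59, SE 0.09, adjusted p 0.0280), which were 1 of 13 and 1 of 14 tested genes of their lists, with 4.26% of all genes called. Without cluster 17 neither Csf2rb (log2 fold change -0.50, SE 0.12, adjusted p 0.0541) nor Il18r1 (log2 fold change 1.73, SE 0.49, adjusted p 0.132) was called. There 3 of 13 tested genes of the type 2 receptor list were, Il2rg and Cish lower and Il13ra1 higher, and 2 of 13 of the IL-33 list, Il7r and Il17ra, both lower, with 5.79% of 12699 genes called. Il13ra1, which encodes a receptor chain for IL-13, rose in these macrophages (log2 fold change 0.58, SE 0.10, adjusted p 0.0322) and in all CD45-positive cells together (log2 fold change 0.26, SE 0.05, adjusted p 0.0390, with 8.74% of genes called). In that sum it was the 1 of 14 tested genes of the type 2 receptor list that rose. The 3 that fell were Csf2rb (log2 fold change -0.52), Csf2rb2 (-0.64) and Stat5a (-0.30). In gamma delta T cells Nfkb1, a subunit gene of NF-kappaB, fell (log2 fold change -0.55, SE 0.12, adjusted p 0.0413), as did Ramp1, which encodes a part of the CGRP receptor (log2 fold change -0.64, SE 0.14, adjusted p 0.0413). Vipr2, a receptor gene for vasoactive intestinal peptide, had 1 and 0 against 21 and 25 UMIs in these cells and was called lower (adjusted p 0.0355). Calcr, the calcitonin receptor gene, had 0 and 1 against 14 and 47 UMIs in thick ascending limb and was called lower (adjusted p 0.0435, with 0.3% of 10659 genes called). Id2, a transcriptional regulator gene of innate lymphocytes, fell in the unnamed cluster 33 (log2 fold change -0.74, SE 0.16, adjusted p 0.0486, with 0.61% of 7537 genes called). In proximal tubule Egfr, the receptor gene for amphiregulin, rose from 17236 and 14713 UMIs with vehicle to 25386 and 21478 with BPTES (log2 fold change 0.60, SE 0.10, adjusted p 0.0464, with 0.681% of 16007 genes called).

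For each gene with at least 50 UMIs, the genes most like it were sought by Pearson correlation of log2(CPM + 1) over 36 classes, which share libraries and depth, as a description. Il33 was most like Gm13889 (r = 0.98), Bgn (0.96) and Snai2 (0.96), and Il1rl1 most like Tm4sf5 (r = 0.78), Areg (0.74) and Il13 (0.73). Gata3 was nearest to Slain1 (r = 0.85), Fam102a (0.84) and Ttn (0.83), and Areg to Pcsk1 (r = 0.84), Hormad2 (0.83) and Ccr8 (0.83). Il4 was nearest to Cpa3 (r = 0.79), Hrh4 (0.76) and B3galt2 (0.76), of which Cpa3 encodes a protease of mast cells and basophils. No class was named for these cells. Among cells with an Il4 UMI, 33 had Cpa3 and 23 Hdc. Other markers of that list were in fewer, Fcer1a in 9, Gata2 in 7, Cd200r3 in 4, Mcpt8 in 3 and Ms4a2 in 2. Mcpt4, Cma1 and Tpsb2 were in 0. Il13 was nearest to Gm26781 (r = 0.85), Serpinb12 (0.84) and Rxrg (0.83), and Calca to Il4 (r = 0.74), Cpa3 (0.69) and Gm43126 (0.66). Within ILC2, 38.8% of cells had UMIs of exactly 4 of the 8 genes, and all cells had at least 1.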

How the data were processed

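Kidney cells were profiled with 10x Genomics GEM-X 3′ chemistry. The deposited tables hold raw UMI counts for each gene and barcode, made by the authors with Cell Ranger 8.0.1 on build mm10, per the submitters' processing notes. The annotation and the use of strand are not given in the sources used here. Barcodes with at least 500 UMIs, 300 genes and at most 50% mitochondrial UMIs were used, less the highest Scrublet scores at 0.4% per 1000 barcodes (3867 cells). Clustering used scanpy 1.11.5 (3000 variable genes, 40 components, 15 neighbours, Leiden resolution 1) without the 8 genes. Clusters were named by marker lists, lymphocytes after a second clustering. A cluster stayed unnamed with fewer than 3 detected markers, with leading genes of another type or, for innate lymphoid and NK types of the second clustering, with Cd3e in at least 50% of cells. Myeloid clusters had no such Cd3e limit. A cluster much shallower than the median of its library also stayed unnamed when its leading genes held no marker of its best list.

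Sums per library and class were tested with edgeR 4.0.16 (quasi-likelihood, robust, TMM, filterByExpr) in classes with at least 20 cells in every library. The script was tested on simulated data. SEs come from the F statistic, and fold changes are BPTES over DMSO. Shares of classes took the cells of the CD45-positive or CD45-negative compartment as library size. Effects in 2 classes were compared as an interaction with the library as a block. Intervals are exact at 95% (Poisson for levels, Clopper-Pearson for shares). They and the limits from a count of 0, set at 3 counts, cover counting error alone. In fits with 1 library left out, the remaining library of that group is assumed to vary like the other group. Promoter windows are from RefSeq and gene positions from GENCODE, both GRCm38.

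The 8 genes, the marker and gene lists and the tests were chosen with earlier results of these data known. Named are all 8 genes, from each list up to 5 called genes per class with the largest change and separate groups (in the fitted classes, without the summed compartments and the added alternatives), and the 3 genes most like each of the 8. Mgl2 in dendritic cells and Retnla were added after their values were seen. Also outside this rule are the list genes given for macrophages without cluster 17, for dendritic cell clusters 14 and 28 alone and for all CD45-positive cells. Alternatives were DESeq2 1.42.0, scaling by RLE, a block for the replicate number, omission of the low-count filter, each library left out, a mitochondrial limit of 25%, doublets kept, resolution 2, clustering with the 8 genes, TMM factors for shares and thinning to 1000 UMIs. Chosen after seeing the data were the joining of unnamed clusters to their best list, the macrophage class without cluster 17, dendritic cell clusters 14 and 28 alone, and the removal of the top Il4 cells.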

Additional observations from a re-analysis of the deposited data

Results flagged for a closer look

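The effect of BPTES on Il4 differed between ILC2 and conventional CD4 T cells. Its log2 fold change in ILC2 minus that in CD4 T cells was -2.86 (SE 0.36, adjusted p 0.0204), by edgeR's test of the difference itself with the library as a block, where 0.024% of 8317 genes were called. Without BPTES replicate 1 it was -2.51 (adjusted p 0.113) and without DMSO replicate 2 -2.71 (0.0583), neither of which was called. The Il4 level was 83.5 and 72.5 against 81.8 and 68.7 CPM in ILC2 and 35.3 and 19.98 against 4.34 and 2.88 CPM in CD4 T cells. In CD4 T cells 1 cell of each treated library held 35 UMIs, and the difference was not fitted without these cells.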

How the results depend on the processing

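Of the 64 pairs of a gene and a class, 4 were called in the main fit. Under the alternatives the calls numbered 4 with the replicate number as a block, 16 without the low-count filter and 3 to 13 with 1 library left out. These counts under the alternatives leave out the unnamed clusters, which are part of the 64 pairs. All 4 calls of the main fit lie in named classes. The counts also need not be out of the same pairs, because the filter and the libraries used decide which pairs can be tested. Genes called in ILC2 numbered 42, 195 without the filter, 16 with the block and 31 to 257 with 1 library left out. In endothelium they numbered 70, and 108 by DESeq2, 566 without the filter, 157 with the block, 120 with unnamed clusters joined to their best list, 46 with doublets kept and 93 to 349 with 1 library left out. Il1rl1 in dendritic cells was -0.62 with doublets kept, -0.38 in cluster 14 alone, -0.20 in cluster 28 alone and -0.81 to -0.68 with 1 library left out. Il4 in the macrophage class was not called with the replicate block (1.86), at resolution 2 (1.80) or with the 8 genes in the clustering (1.76), and ranged from 1.53 to 2.25 with 1 library left out. Il4 in conventional CD4 T cells was 2.09 without the top cells. The share of ILC2 was not called with TMM factors (1.13) or at resolution 2 (0.90), and ranged from 0.95 to 1.35 with 1 library left out. The direction of some uncalled pairs turned. At resolution 2 this held for Il1rl1 in ILC2 (0.0555) and macrophages (0.12) and Calca in natural killer T cells (0.96), and without cluster 17 for Il1rl1 in macrophages (0.29). With 1 library left out, the ranges that crossed 0 were Gata3 in CD8 T cell -0.0229 to 0.24, Gata3 in conventional CD4 T cell -0.14 to 0.0726, Il1rl1 in ILC2 -0.0951 to 0.0202, Gata3 in ILC2 -0.13 to 0.0645, Areg in ILC2 -0.23 to 0.57, Il4 in ILC2 -0.087 to 0.18, Gata3 in intercalated cell -0.0992 to 0.28, Il1rl1 in macrophage -0.27 to 0.16, Gata3 in macrophage -0.0294 to 1.02, Areg in macrophage -1.51 to 0.0864, Il4 in natural killer T cell -1.28 to 0.55, Il1rl1 in regulatory T cell -0.51 to 0.17. The cause was not tested for any of these. The replicate numbers are not said to pair the libraries, and deviations of same-numbered libraries correlated between -0.0769 and 0.0947 over genes in 5 classes. Il5 and Il13 rest on few UMIs, 43 and 104 in all, which limits their precision.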
